A study of Mus musculus with 21 samples.

Results

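The transcripts of 9 haematopoietic cytokine receptor genes, Kit, Csf1r, Csf2ra, Csf2rb, Csf3r, Il3ra, Il6st, Il6ra and Ifngr1, were followed across stem and progenitor cells of Phf6 knockout (KO) and wild-type (WT) mice. The genes were chosen by symbol, through their Ensembl identifiers, from 54446 gene identifiers in the table of counts. All 9 were in the table and all 9 passed the filter on low counts that left 21100 genes for testing. RNA was sequenced from 3 populations of sorted bone marrow cells: long-term haematopoietic stem cells (LT-HSC) and the multipotent progenitors MPP2 and MPP3. Phf6 encodes a nuclear protein with plant homeodomain fingers, and the series asks how its loss bears on the self-renewal of stem cells. The groups were KO LT-HSC (3 libraries) and WT LT-HSC (2), KO MPP2 (4) and WT MPP2 (4), and KO MPP3 (4) and WT MPP3 (4). All mice were of strain C57BL/6 and 12 weeks of age, and the labels name no treatment. The sources used here do not give the KO allele or say whether it was deleted in blood cells alone. Each library held 100 to 200 cells, sorted after staining for lineage antigens, Sca-1, cKit, CD150 and CD48, from which a Nextera XT library was prepared. Because the cells were sorted on the Kit protein itself, the Kit transcript was measured among cells already chosen for its product.

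Cytokine receptors let marrow cells read the growth factors around them. Kit and Csf1r are receptor tyrosine kinases that phosphorylate themselves when stem cell factor or macrophage colony-stimulating factor binds. The others lack a kinase and signal through Janus kinases and STAT factors; most work as a ligand-binding chain joined to a signalling chain, which several cytokines may share. Stem cell factor maintains stem cells, whereas the receptors for the macrophage, granulocyte and granulocyte-macrophage factors are known for carrying cells into the myeloid lineages.

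The 250 bases before the annotated gene start were taken from RefSeq (GRCm38.p6) for 7 of the 9 genes. The promoters of Csf3r and Il6ra are shown because these transcripts varied together most closely among the receptors, and that of Ifngr1 because its levels ran in another order. Csf3r lies at chr4:126024409-126024658 on the plus strand, Il6ra at chr3:89913197-89913446 on the minus strand and Ifngr1 at chr10:19591699-19591948 on the plus strand. Capitals mark GAGGAA or its complement TTCCTC, the core that the myeloid factor PU.1 and other ETS factors can bind.
Csf3r promoter: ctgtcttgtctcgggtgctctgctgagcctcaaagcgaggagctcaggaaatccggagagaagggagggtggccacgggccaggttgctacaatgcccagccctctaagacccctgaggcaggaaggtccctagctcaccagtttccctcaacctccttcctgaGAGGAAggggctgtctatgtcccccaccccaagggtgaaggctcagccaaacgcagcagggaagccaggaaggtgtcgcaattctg
Il6ra promoter: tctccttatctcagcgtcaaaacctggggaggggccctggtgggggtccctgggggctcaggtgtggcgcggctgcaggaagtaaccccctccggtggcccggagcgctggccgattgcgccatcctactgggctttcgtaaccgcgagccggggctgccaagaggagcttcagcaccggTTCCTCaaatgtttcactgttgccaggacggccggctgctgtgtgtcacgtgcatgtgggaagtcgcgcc
Ifngr1 promoter: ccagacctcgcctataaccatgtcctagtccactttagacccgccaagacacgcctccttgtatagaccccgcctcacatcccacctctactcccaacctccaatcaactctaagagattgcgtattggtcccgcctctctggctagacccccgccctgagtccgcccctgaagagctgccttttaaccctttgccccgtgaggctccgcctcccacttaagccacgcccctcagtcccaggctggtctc
GAGGAA was found, on either strand, in the windows of Csf2ra, Csf3r, Il6ra and Kit, and in 23.3% of 32851 mouse promoters of the same length. Csf3r held 1 match starting at -86 from the gene start and Il6ra 1 at -70, Kit 1 at -223, and Csf2ra 2 side by side at -14 and -8. TTGCNNAA, the C/EBP core, was found in 9.56% of promoters and among the 7 only in Il3ra, at -134. AGATAA, the GATA core, was found in 9.99% of promoters and among the 7 only in Il6ra, at -245. TGTGGT, the RUNX core, and TTCNNNGAA, the STAT core, were in 14.05% and 7.02% of promoters and in 0 of the 7 windows. Positions count from the RefSeq start, which lies 109 bases inside the GENCODE gene for Csf3r, 220 for Il3ra, 71 for Kit and 11 for Csf2ra, and at the same base for Il6ra, Il6st and Ifngr1. The Csf3r and Il3ra matches and the Csf2ra match at -8 therefore fall within the gene bounds given for them here. None of these matches overlapped another motif searched, and a match is a run of letters, not a measured binding site.

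Total counts ran from 18892723 to 31611366 per library, with a median of 26158938. Phf6 itself had 43 to 395 counts in the 11 KO libraries, against 1545 to 5204 in the 10 WT libraries. Summed counts of 9 stem cell markers were 0.0977% to 0.127% of the total in KO LT-HSC and 0.125% to 0.132% in WT LT-HSC. The highest MPP2 or MPP3 library, KO MPP3 2, held 0.0859%. After TMM scaling, KO MPP3 2 held 924 counts per 1000000 of these markers, above KO LT-HSC 2 at 874. The stem cell label thus fitted its markers by share of counts, but not in every library after scaling. The 6 libraries numbered 2 had 2071 or more counts of the Y-linked Ddx3y, and the 15 others at most 3, the pattern of male cells. Of the 21 libraries, 3 stood apart. Immunoglobulin genes took 45.8% of counts in KO MPP2 1 and 25.8% in KO MPP3 1, against at most 4.02% in the 18 libraries that did not stand apart. In KO MPP3 2 a single non-coding transcript, CT010467.1, took 10.3% of counts, against at most 0.582% in those 18, and mitochondrial genes took 12.8%, against at most 5.96%. Each sample title also carries a serial number, under 100 for replicates 1 and 2 and over 100 for replicates 3 and 4 of every group; the labels do not say what these 2 runs of numbers stand for. Replicates of a group came from different mice, and each mouse gave several populations. In bulk RNA, fewer cells of a type and less RNA per cell cannot be told apart. Levels are CPM, that is, counts per 1000000 after TMM scaling, with means ± SD, and the floor used here, 3 counts, equals 0.0985 to 0.194 CPM. KO LT-HSC 3 had the fewest genes with a count among the LT-HSC libraries, 20297.

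Per kilobase of exon, Ifngr1 was the most abundant of the 9 transcripts and Il6ra the least. The medians over the 21 libraries were 75.7 CPM per kb for Ifngr1, 27.2 for Kit, 16.4 for Csf3r and 8.22 for Csf2ra. Below these came Csf2rb at 3.61 CPM per kb, Csf1r at 1.98, Il3ra at 1.499, Il6st at 1.35 and Il6ra at 0.953. Kit varied least between libraries, by 3.79-fold from the lowest to the highest, and Csf3r most among those with counts above the floor in every library, by 62.9-fold.

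**Figure D1:**
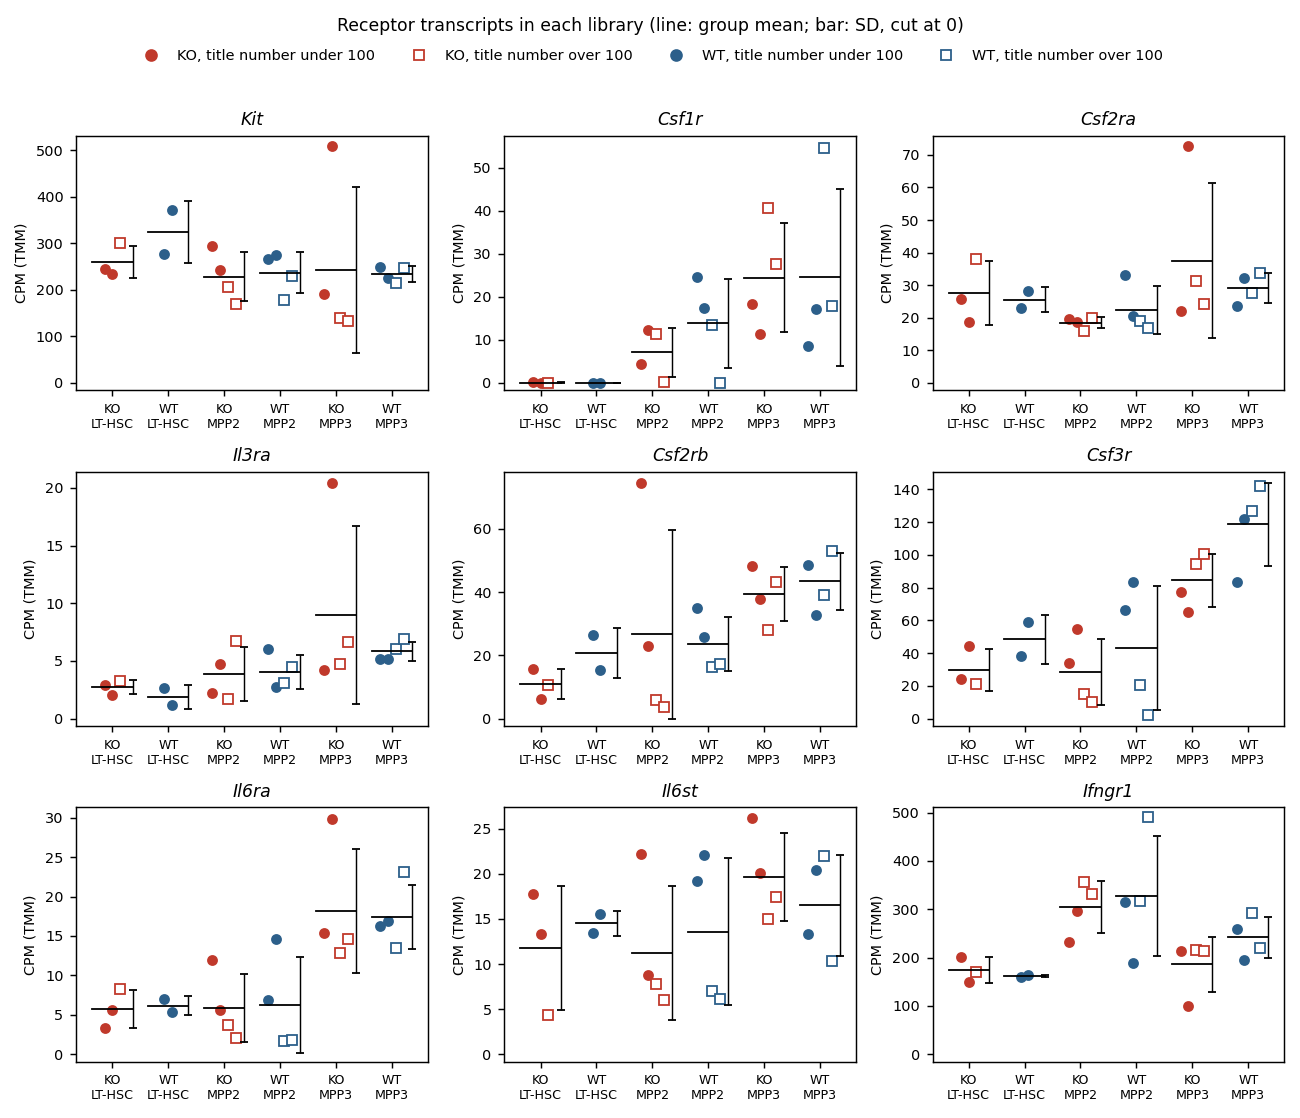
Each panel plots 1 receptor transcript in CPM on a linear axis (TMM-scaled), 1 point a library, with KO left of WT in each population, the group mean as a line and the SD as a bar cut at 0; filled circles are title numbers under 100 and open squares those over 100. Csf1r lies at 0.108 CPM or less in all 5 LT-HSC libraries, and KO MPP3 2 stands above the other KO MPP3 libraries for Kit at 509 CPM and Il3ra at 20.4 CPM.

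Kit, the receptor of stem cell factor (ENSMUSG00000005672.12, mm10 chromosome 5, 75574916 to 75656722, plus strand), was carried by every library at 134 CPM or more. In LT-HSC it stood at 245, 235 and 300.2 CPM in KO and 277 and 372 CPM in WT. In MPP2 it was 294, 243, 206 and 170.4 CPM in KO and 266, 274, 177 and 229.6 CPM in WT, and in MPP3 191, 509, 139 and 134 CPM in KO and 249.9, 226, 214 and 246 CPM in WT. The KO and WT ranges overlapped in each population, and the 6 group means lay between 228 ± 52.9 CPM (KO MPP2, n = 4) and 324 ± 67.1 CPM (WT LT-HSC, n = 2). Every pair of neighbours in the order of means overlapped, so no full order of the 6 groups could be read for Kit. Within WT, both LT-HSC libraries lay above every MPP2 library (at most 274 CPM) and every MPP3 library (at most 249.9 CPM). EdgeR called neither of these WT differences. In KO the LT-HSC libraries overlapped those of MPP2 and MPP3. The high KO mean in MPP3 rested on KO MPP3 2, one of the libraries that stood apart. Without the 3 libraries that stood apart, Kit was called higher in KO LT-HSC than in KO MPP3. The log2 fold change was 0.94 (edgeR adjusted p = 0.0201), against 0.10 ± 0.34 (SE, edgeR adjusted p = 0.949) with those libraries. That call kept only KO MPP3 libraries with titles over 100, while KO LT-HSC 1 and 2 have titles under 100. Population and title run are thus mixed in it. Within KO MPP3, Kit under 100 over that above 100 was 1.36 ± 0.33 on the log2 scale (edgeR adjusted p = 0.108). In WT the difference of LT-HSC over MPP3 was 0.47 ± 0.38 on the log2 scale (edgeR adjusted p = 0.862).

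Csf1r, the receptor of macrophage colony-stimulating factor (ENSMUSG00000024621.15, chromosome 18, 61100598 to 61132149, plus strand), was at or under the floor in the stem cells and well above it in all but 2 progenitor libraries. The counts were 3, 0 and 0 in KO LT-HSC and 1 and 2 in WT LT-HSC, at or under the floor. In MPP2 they were 69, 302, 321 and 5 in KO and 610, 425, 407 and 1 in WT. In MPP3 they were 420, 201, 1172 and 775 in KO and 210, 488, 1551 and 494 in WT. No LT-HSC library reached the count of any MPP3 library, while the MPP2 libraries numbered 4 lay near the stem cells, with 0.178 CPM in KO MPP2 4 and 0.0419 CPM in WT MPP2 4. Means were 7.06 ± 5.76 CPM in KO MPP2 and 13.8 ± 10.3 CPM in WT MPP2, and 24.5 ± 12.6 CPM in KO MPP3 and 24.5 ± 20.5 CPM in WT MPP3 (n = 4 each). LT-HSC held 3 counts summed over the libraries of either genotype. Relative to these, the summed level was 209.5-fold higher in KO MPP2 (95% exact counting interval 71.4 to 1019) and 269-fold higher in WT MPP2 (91.8 to 1305). It was 763-fold higher in KO MPP3 (261 to 3703) and 485-fold higher in WT MPP3 (166 to 2352). Counting error is all that these intervals and floors cover. The intervals pool the libraries and leave out the spread between mice, which in WT MPP2 ran from 1 to 610 counts. PCR copies also cannot be told from separate molecules in libraries without molecular identifiers.

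Csf1r was the single receptor called between populations. With edgeR it was lower in LT-HSC than in MPP3 in KO (adjusted p = 0.00646) and WT (adjusted p = 0.0491), and lower in LT-HSC than in MPP2 in KO (adjusted p = 0.0286), in every library against every other. In WT it missed the threshold of 0.05 against MPP2 (adjusted p = 0.0835). The fitted log2 fold changes of LT-HSC over MPP3 were -9.27 ± 1.80 in KO and -8.76 ± 2.11 in WT, and those of LT-HSC over MPP2 -7.48 ± 1.72 in KO and -7.94 ± 2.05 in WT. These depend on the prior count and are no bounds. With the mouse as a replicate block, the call against MPP3 held in KO (edgeR adjusted p = 0.0234) and was lost in WT (0.137), and that against MPP2 in KO was lost (0.0740). Limma voom called Csf1r in none of the 3 comparisons (adjusted p = 0.0601 for LT-HSC over MPP3 in KO, 0.111 in WT and 0.197 for LT-HSC over MPP2 in KO). Of all alternatives, 3 of 12 did not call Csf1r for LT-HSC over MPP3 in KO, 7 of 10 in WT, and 7 of 12 for LT-HSC over MPP2 in KO. Leaving out any 1 of the 6 libraries ended the WT call, with edgeR adjusted p values between 0.0597 and 0.605. That of KO LT-HSC against KO MPP2 was lost without any of the 3 KO LT-HSC libraries or without KO MPP2 2 or 3 (edgeR adjusted p from 0.0597 to 0.133), and that of KO LT-HSC against KO MPP3 held without each of its 7 libraries (0.00920 to 0.0445). The 10 monocyte and macrophage markers beside Csf1r took 0.00101% to 0.00436% of counts in KO LT-HSC and 0.00274% to 0.00366% in WT LT-HSC. They took 0.00181% to 0.178% in KO MPP2 and 0.00263% to 0.0496% in WT MPP2, and 0.00264% to 0.103% in KO MPP3 and 0.00472% to 0.0121% in WT MPP3. Ccr2 alone of them was at 0 throughout a group, KO LT-HSC. The libraries highest in these markers, KO MPP2 1 and KO MPP3 1, held 4.45 and 18.2 CPM of Csf1r, under the highest of their groups, and the part of such cells in the result was not tested.

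Csf2ra encodes the binding chain for granulocyte-macrophage colony-stimulating factor (ENSMUSG00000059326.6, chromosome 19, 61223957 to 61228429, minus strand). It was measured at 25.8, 18.8 and 38.2 CPM in KO LT-HSC and 22.9 and 28.2 CPM in WT LT-HSC. In MPP2 the values were 19.6, 18.7, 15.9 and 19.8 CPM in KO and 33.0, 20.4, 18.9 and 17.0 CPM in WT, and in MPP3 22.1, 72.8, 31.2 and 24.1 CPM in KO and 23.6, 32.1, 27.6 and 33.8 CPM in WT. All 4 KO MPP2 libraries lay below all 4 KO MPP3 libraries, with a log2 fold change of -1.02 ± 0.33 that missed the threshold (edgeR adjusted p = 0.171). The highest value, 72.8 CPM, was again that of KO MPP3 2, and without that library the log2 fold change of Csf2ra was -0.48 (edgeR adjusted p = 0.507).

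Il3ra, the binding chain for interleukin 3 (ENSMUSG00000068758.8, chromosome 14, 14346275 to 14356011, plus strand), was scarce throughout, with 34 to 359 counts a library. LT-HSC held 2.95, 2.06 and 3.24 CPM in KO and 2.64 and 1.16 CPM in WT. MPP2 held 2.26, 4.73, 1.74 and 6.74 CPM in KO and 6.01, 2.73, 3.09 and 4.45 CPM in WT, and MPP3 held 4.17, 20.4, 4.72 and 6.61 CPM in KO and 5.18, 5.18, 6.06 and 6.87 CPM in WT. KO and WT overlapped in each population, and KO MPP3 2 stood far above the other libraries. Il3ra averaged 2.75 ± 0.614 CPM in KO LT-HSC (n = 3) and 1.90 ± 1.05 CPM in WT LT-HSC (n = 2). The means were 3.87 ± 2.32 CPM in KO MPP2 and 4.07 ± 1.49 CPM in WT MPP2, and 8.98 ± 7.70 CPM in KO MPP3 and 5.82 ± 0.815 CPM in WT MPP3 (n = 4 each). Every LT-HSC library, at 1.16 to 3.24 CPM, lay below every MPP3 library, the lowest of which held 4.17 CPM. LT-HSC over MPP3 came to -1.71 ± 0.60 in KO (edgeR adjusted p = 0.162) and -1.62 ± 0.70 in WT (edgeR adjusted p = 0.473) on the log2 scale. DESeq2 called the KO difference (adjusted p = 0.0330). Without KO MPP3 2, the KO difference was -0.91 (edgeR adjusted p = 0.396).

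Csf2rb, the beta chain shared by the receptors for interleukin 3, interleukin 5 and granulocyte-macrophage colony-stimulating factor (ENSMUSG00000071713.6, chromosome 15, 78325752 to 78353847, plus strand), was lowest on average in the stem cells. In KO, the gap between the means of LT-HSC and MPP2 rested on 1 library, KO MPP2 1. The libraries held 15.6, 6.10 and 10.7 CPM in KO LT-HSC and 26.3 and 15.2 CPM in WT LT-HSC. They held 74.4, 23.0, 5.82 and 3.81 CPM in KO MPP2 and 34.8, 25.9, 16.4 and 17.4 CPM in WT MPP2, and 48.2, 38.0, 28.1 and 43.3 CPM in KO MPP3 and 48.5, 32.7, 39.2 and 53.1 CPM in WT MPP3. The 3 KO LT-HSC libraries lay below the 4 KO MPP3 libraries, and the 2 WT LT-HSC libraries below the 4 WT MPP3 libraries. LT-HSC over MPP3 was -1.86 ± 0.69 in KO (edgeR adjusted p = 0.186) and -1.06 ± 0.78 in WT (edgeR adjusted p = 0.813) on the log2 scale, and the KO difference was called by limma voom (adjusted p = 0.0188). The highest value of all, 74.4 CPM, came from KO MPP2 1, in which 36.8% of counts were of B and plasma cell markers and 0.738% of neutrophil markers. The part of these markers in that value was not tested. Without the 3 libraries that stood apart, LT-HSC over MPP2 in KO was 0.02 on the log2 scale (edgeR adjusted p = 0.999). With them it was -1.30 ± 0.68 (edgeR adjusted p = 0.351). KO MPP2 3 and 4, at 5.82 and 3.81 CPM, lay below every LT-HSC library.

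Mice have a close copy of this gene next to it, Csf2rb2, whose product serves interleukin 3 alone (ENSMUSG00000071714.7, chromosome 15, 78282507 to 78305721, minus strand). It ranged from 0 to 8.85 CPM, with 0 counts in KO LT-HSC 3 and KO MPP2 3, and was called in none of the 12 comparisons. How reads shared by the pair were counted is not known, so the split between them is uncertain. With the counts of both added, no comparison changed its call, and the log2 fold change of KO LT-HSC over KO MPP3 became -1.70 (edgeR adjusted p = 0.234).

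Csf3r, the receptor of granulocyte colony-stimulating factor (ENSMUSG00000028859.14, chromosome 4, 126024550 to 126044440, plus strand), was highest on average in MPP3. LT-HSC held 24.1, 44.5 and 21.05 CPM in KO and 38.0 and 59.2 CPM in WT. MPP2 held 34.0, 54.5, 15.3 and 10.02 CPM in KO and 66.3, 83.5, 20.6 and 2.27 CPM in WT, and MPP3 held 77.1, 65.3, 94.6 and 101 CPM in KO and 83.2, 122, 127 and 142 CPM in WT. KO LT-HSC and KO MPP2 lay wholly below KO MPP3, and WT LT-HSC wholly below WT MPP3, while WT MPP2 overlapped WT MPP3 by 1 library, WT MPP2 2. MPP2 over MPP3 was -1.57 ± 0.66 in KO (edgeR adjusted p = 0.285) and -1.46 ± 0.66 in WT (edgeR adjusted p = 0.337) on the log2 scale. LT-HSC over MPP3 was -1.50 ± 0.73 in KO (edgeR adjusted p = 0.329) and -1.29 ± 0.84 in WT (edgeR adjusted p = 0.751). Mature neutrophils also carry Csf3r. The 10 neutrophil markers took 0.510% of counts in WT LT-HSC 2, 0.738% in KO MPP2 1 and 0.199% in WT MPP3 1, and at most 0.0339% in the other 18 libraries. WT LT-HSC 2 was the highest LT-HSC library for Csf3r, whereas WT MPP3 1 was the lowest WT MPP3 library, and the part of these markers was not tested.

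Il6ra, the binding chain for interleukin 6 (ENSMUSG00000027947.11, chromosome 3, 89864059 to 89913196, minus strand), was also highest on average in MPP3. LT-HSC held 3.34, 5.59 and 8.24 CPM in KO and 7.03 and 5.30 CPM in WT. MPP2 held 11.9, 5.66, 3.73 and 2.07 CPM in KO and 6.85, 14.7, 1.71 and 1.76 CPM in WT, and MPP3 held 15.4, 29.8, 12.9 and 14.6 CPM in KO and 16.3, 17.0, 13.5 and 23.1 CPM in WT. All KO LT-HSC and KO MPP2 libraries lay below all KO MPP3 libraries, and WT MPP2 2 alone overlapped WT MPP3. MPP2 over MPP3 was -1.64 ± 0.61 in KO (edgeR adjusted p = 0.230) and -1.48 ± 0.61 in WT (edgeR adjusted p = 0.282) on the log2 scale. Limma voom called both (adjusted p = 0.0245 in KO and 0.0423 in WT), and also LT-HSC over MPP3 in WT (adjusted p = 0.0404).

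Il6st encodes gp130, the signalling chain that interleukin 6 shares with interleukin 11, oncostatin M and leukaemia inhibitory factor (ENSMUSG00000021756.12, chromosome 13, 112464070 to 112510086, plus strand). Its group means ran from 11.2 ± 7.42 CPM in KO MPP2 to 19.7 ± 4.85 CPM in KO MPP3, each overlapping the next. LT-HSC held 17.7, 13.3 and 4.30 CPM in KO and 13.5 and 15.5 CPM in WT, the lowest being KO LT-HSC 3. In MPP2 it stood at 22.2, 8.82, 7.74 and 6.06 CPM in KO and 19.2, 22.0, 7.03 and 6.17 CPM in WT, high in 3 libraries numbered 1 or 2 and low in all 4 numbered 3 or 4. In MPP3 it stood at 26.2, 20.1, 15.0 and 17.4 CPM in KO and 13.3, 20.4, 22.0 and 10.3 CPM in WT, with no such split. No population difference of Il6st had an unadjusted p under 0.05.

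Ifngr1, the binding chain of the interferon gamma receptor (ENSMUSG00000020009.13, chromosome 10, 19591949 to 19610229, plus strand), was highest on average in MPP2 and lowest in the stem cells. LT-HSC held 202, 149.8 and 171 CPM in KO and 160.1 and 163 CPM in WT. MPP2 held 232, 297, 357 and 332 CPM in KO and 315, 188, 317 and 491 CPM in WT, above every LT-HSC library of the same genotype. MPP3 held 214, 101, 215 and 214 CPM in KO and 259, 196, 292 and 220.2 CPM in WT. The MPP3 libraries overlapped those of LT-HSC in KO and those of MPP2 in WT, and their means of 186 ± 57.0 CPM in KO and 242 ± 42.4 CPM in WT lay between those of the other populations. LT-HSC over MPP2 was -0.80 ± 0.28 in KO (edgeR adjusted p = 0.169) and -1.02 ± 0.33 in WT (edgeR adjusted p = 0.168) on the log2 scale, and limma voom called both (adjusted p = 0.00892 in KO and 0.0371 in WT). MPP2 over MPP3 was 0.71 ± 0.26 in KO (edgeR adjusted p = 0.219) and 0.44 ± 0.26 in WT (edgeR adjusted p = 0.485). The fitted MPP2 over MPP3 value was positive for Ifngr1 in both genotypes and negative for Csf1r, Csf2ra, Csf2rb, Csf3r, Il3ra, Il6ra and Il6st in both.

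No receptor transcript passed the threshold between KO and WT in any population. Of the 9 genes, edgeR called 0 between KO and WT in LT-HSC, where 0.00474% of all tested genes were called, 0 in MPP2 (0.0142%) and 0 in MPP3 (0.00948%). None of the 27 differences had an unadjusted p under 0.05, and DESeq2 and limma voom also called 0 of the 9 in each population. KO and WT libraries overlapped for each of the 9 genes in each population. The share of all tested genes with such overlap was not taken, so this is a description of the 9 alone. Over the 8 genes other than Csf1r, which was at or under the floor in all LT-HSC libraries, the median log2 fold change in LT-HSC was -0.20 against 0.00 for all genes tested. Over the 9 it was -0.11 in MPP2, against 0.01 for all genes, and 0.06 in MPP3, against 0.00 for all genes. Without the 3 libraries that stood apart these medians were -0.72 in MPP2 and -0.17 in MPP3. The median over all genes was not taken for that fit. It leaves out only KO libraries with titles under 100, so genotype and title run are mixed in it.

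The intervals show what sizes of change the libraries could not separate from no change. Those of Ifngr1 were narrow, with a log2 fold change of KO over WT of -0.11 and a 95% interval of -0.65 to 0.43 in MPP2, and of -0.38 (-0.92 to 0.16) in MPP3. Kit gave -0.32 (-1.17 to 0.53) in LT-HSC, -0.05 (-0.71 to 0.61) in MPP2 and 0.06 (-0.61 to 0.72) in MPP3. The largest fitted values were those of Csf1r in MPP2, -0.97 (-3.11 to 1.17), and Csf2rb in LT-HSC, -0.94 (-2.56 to 0.68), followed by Csf3r in LT-HSC, -0.70 (-2.43 to 1.02). Csf3r had lower means in KO than in WT in each population, 29.9 and 48.6 CPM in LT-HSC, 28.4 and 43.2 CPM in MPP2, and 84.5 and 119 CPM in MPP3, with overlapping libraries each time. By number, Csf3r was lower in KO than in the paired WT library in 2 of 2 pairs of LT-HSC, 3 of 4 of MPP2 and 4 of 4 of MPP3, and Ifngr1 in 4 of 4 pairs of MPP3. With the pairs as a replicate block, neither was called in MPP3, where the log2 fold change was -0.46 for Csf3r (edgeR adjusted p = 0.982) and -0.42 for Ifngr1 (edgeR adjusted p = 0.897). Over all 10 pairs, KO was lower in 9 for Csf3r, 8 for Csf2rb, and 7 for Kit and Ifngr1. It was lower in 6 for Csf2ra and Csf1r, and in 5 for Il3ra, Il6ra and Il6st. Pairs of different populations share mice, and the signs over all genes were not taken, so these counts are descriptions. Several fitted values moved with the 3 libraries that stood apart, though none was called without them. In MPP2, leaving them out gave -1.13 for Csf2rb (edgeR adjusted p = 0.520) against 0.17 with them, -0.73 for Il6ra against -0.10, and -0.87 for Il6st against -0.28. In MPP3 it gave -0.77 for Kit (edgeR adjusted p = 0.318) against 0.06 with them, -0.04 for Il3ra against 0.62, -0.08 for Csf2ra against 0.36, and 0.48 for Csf1r against -0.00. The libraries left out, KO MPP2 1, KO MPP3 1 and KO MPP3 2, all have titles under 100. KO MPP2 then held fewer libraries under 100 than WT MPP2, and KO MPP3 held none. Genotype and title run are thus mixed in these values.

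**Figure D2:**
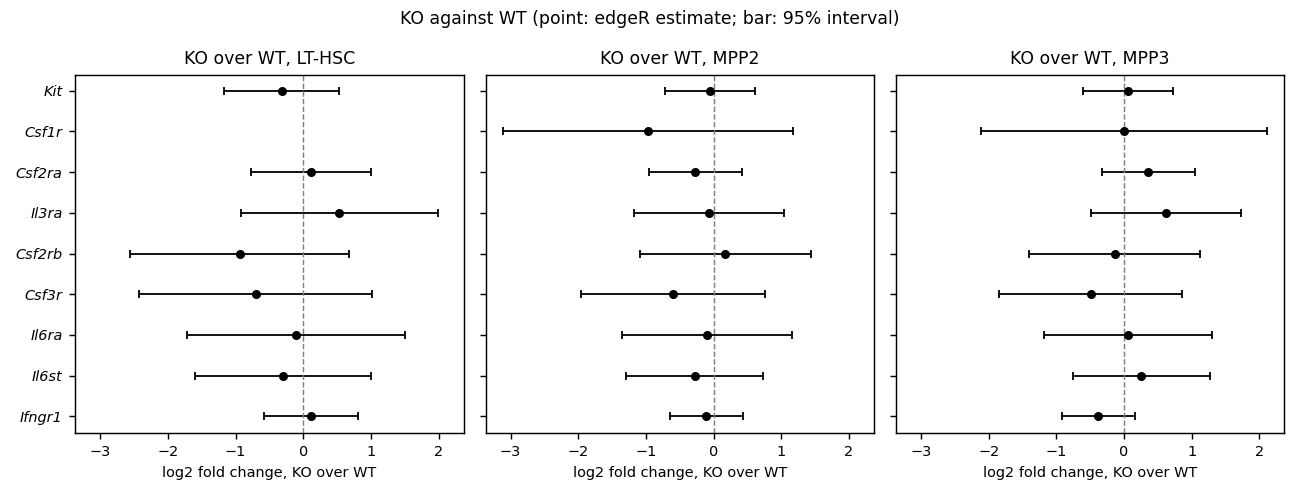
Each panel plots, for 1 population, the log2 fold change of KO over WT for each receptor (point, edgeR estimate) with its 95% interval (bar); Csf1r is left out in LT-HSC, where all libraries were at or under the floor. Every interval drawn includes 0, from the narrow one of Ifngr1 in MPP2 (-0.65 to 0.43) to the wide one of Csf1r in MPP2 (-3.11 to 1.17).

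The KO effect was also compared between populations. Of the 9 genes, edgeR called 0 for LT-HSC minus MPP2 (0.00% of all genes tested were called), 0 for LT-HSC minus MPP3 (0.00%) and 0 for MPP2 minus MPP3 (0.00%). None of these differences had an unadjusted p under 0.05 for a receptor, and DESeq2 and limma voom called 0 of the 9. Over all genes, 759, 521 and 943 had such a p, and DESeq2 called 26, 27 and 13 and limma voom 0. The KO effect on Csf2rb in LT-HSC minus that in MPP2 was -1.12 on the log2 scale (95% interval -3.17 to 0.94). For Csf2ra, MPP2 minus MPP3 was -0.63 (-1.60 to 0.34).

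Between populations, the largest median differences of the receptors were those against MPP3. In KO, edgeR called 1 of the 9, Csf1r, for LT-HSC over MPP2, where 1.81% of all genes were called, 1, Csf1r, for LT-HSC over MPP3 (2.64%) and 0 for MPP2 over MPP3 (0.886%). In WT it called 0 for LT-HSC over MPP2 (0.630%), 1, Csf1r, for LT-HSC over MPP3 (1.10%) and 0 for MPP2 over MPP3 (1.20%). DESeq2 called 1 of the 9 (Csf1r) for LT-HSC over MPP2 in WT and 0 for MPP2 over MPP3 in both genotypes. Limma voom called 1 (Ifngr1) for LT-HSC over MPP2 in WT, and for MPP2 over MPP3 2 in KO (Csf2rb and Il6ra) and 1 in WT (Il6ra). The edgeR count of 1 rests on Csf1r each time. For LT-HSC over MPP3, 8 of the 9 had negative fitted values in both KO and WT, Kit being the exception, and the median was -1.50 in KO and -1.06 in WT, against -0.03 for all genes in both. For MPP2 over MPP3 the median was -1.02 in KO and -0.52 in WT, against 0.02 and -0.02 for all genes. For LT-HSC over MPP2 it was -0.03 in KO and -0.02 in WT, against -0.04 and 0.00. Unadjusted p values were under 0.05 for 5 of the 9 in MPP2 over MPP3 in KO and 2 of the 9 in WT, for 2 in LT-HSC over MPP2 in either genotype, and for 4 in LT-HSC over MPP3 in KO and 2 in WT. Over all genes the share with such a p was 14.5% in KO and 13.5% in WT for MPP2 over MPP3, 16.3% in KO and 13.0% in WT for LT-HSC over MPP2, and 15.6% in KO and 9.20% in WT for LT-HSC over MPP3. The KO and WT comparisons use different mice, but the 3 comparisons within a genotype share libraries.

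**Figure D3:**
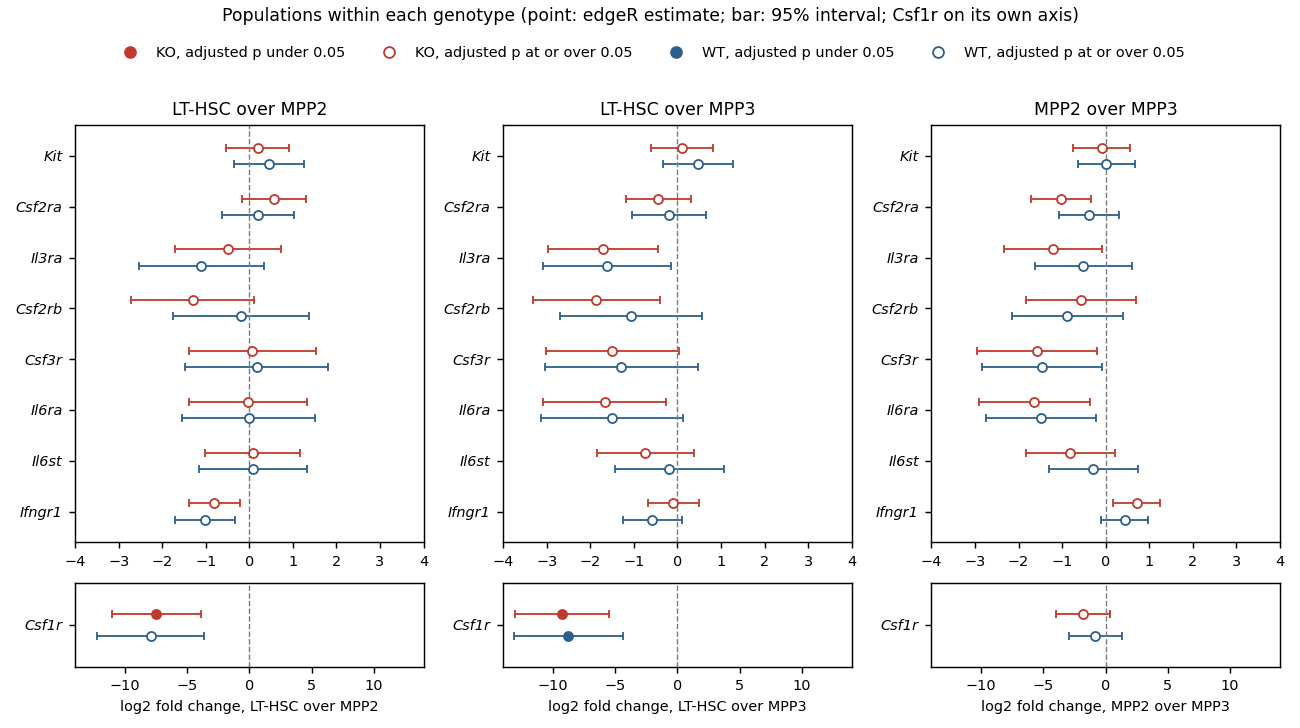
Each panel plots the log2 fold change between 2 populations for each receptor, KO above WT, as the edgeR estimate with its 95% interval; filled points have an adjusted p under 0.05, and Csf1r is drawn below on an axis of its own. Csf1r is filled for LT-HSC over MPP2 in KO and LT-HSC over MPP3 in KO and WT, and Ifngr1 lies left of 0 for LT-HSC over MPP2 in both genotypes.

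In MPP2 several of these transcripts split by title number, in both genotypes. Every library with the male pattern has a title under 100, so sex and title run are partly mixed. Csf3r held 34.0 and 54.5 CPM in the KO MPP2 libraries with numbers under 100 and 15.3 and 10.02 CPM in those over 100, and in WT MPP2 66.3 and 83.5 CPM under 100 and 20.6 and 2.27 CPM over 100. Kit, Il6ra, Il6st and Csf2rb were likewise higher in both libraries under 100 than in both over 100 within each genotype. Ifngr1 was lower in both under 100 than in both over 100 within each genotype. The share of all tested genes that separate in this way was not taken, so this describes the receptors alone. By edgeR, the numbers under 100 over those over 100 gave a log2 difference of 3.33 ± 0.57 for Csf2rb in KO MPP2 (adjusted p = 0.0140), the 1 receptor among the 1.27% of all genes called there, and of 2.63 ± 0.55 for Il6ra in WT MPP2 (adjusted p = 0.0301), the 1 receptor among 1.29% of all genes. For Csf3r it was 1.81 ± 0.64 in KO MPP2 (adjusted p = 0.212) and 2.71 ± 0.66 in WT MPP2 (adjusted p = 0.0618). In MPP3 no receptor was called between these sets of libraries, and 0.0474% of all genes were called in KO MPP3 and 0.0379% in WT MPP3. B and plasma cell markers moved with the split, at 36.8% and 1.94% of counts in KO MPP2 under 100 and 3.79% and 2.68% in WT MPP2 under 100, against at most 0.0104% in the 4 MPP2 libraries over 100. Monocyte and macrophage markers took 0.178% and 0.0280% of counts in KO MPP2 under 100 and 0.0172% and 0.00181% over 100, and in WT MPP2 0.0496% and 0.0218% under 100 and 0.00376% and 0.00263% over 100. Erythroid markers ran the other way, with 0.00620% and 0.0410% in KO MPP2 under 100 and 0.0724% and 0.0769% over 100, and in WT MPP2 0.0158% and 0.0111% under 100 and 0.0743% and 0.0526% over 100. The part of these markers in the split was not tested.

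The contrast of MPP2 with MPP3 passed the threshold within 1 run of titles and not within the other, and the difference between runs was not tested. Within titles over 100, MPP2 over MPP3 was -2.95 in KO (adjusted p = 0.0279) and -3.55 in WT (adjusted p = 0.00886) for Csf3r, by edgeR. For Il6ra it was -2.25 in KO (adjusted p = 0.0388) and -3.39 in WT (adjusted p = 0.00394), and Csf2rb was called in KO at -2.89 (adjusted p = 0.0107). Within titles under 100, Csf3r gave -0.69 in KO (edgeR adjusted p = 0.593) and -0.46 in WT (edgeR adjusted p = 1), and Il6ra gave -1.36 in KO (0.243) and -0.63 in WT (0.963). Each such comparison rested on 2 libraries against 2. Csf3r and Il6ra were the most alike of the 36 pairs of receptors over the 21 libraries, with a Pearson r of 0.82 on the log2(CPM + 1) values, which share the split by population and by title number. The least alike were Csf2ra and Ifngr1, with r of -0.63; these libraries share mice and scaling, so the r values are descriptions.

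**Figure D4:**
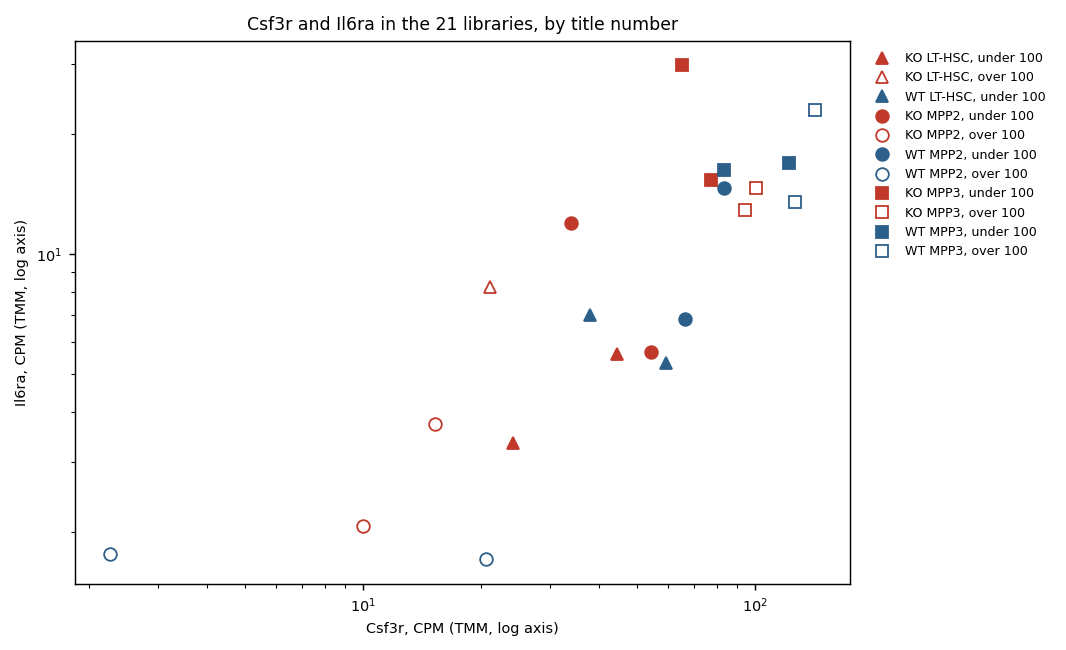
Each point is 1 library, with Csf3r on the horizontal and Il6ra on the vertical axis, both in CPM on log axes; red is KO and blue WT, triangles are LT-HSC, circles MPP2 and squares MPP3, filled for title numbers under 100. The 4 open circles, MPP2 over 100, lie at the low end, with Il6ra at 1.71 to 3.73 CPM, and the MPP3 squares at the high end, with Il6ra at 12.9 CPM or more.

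Since these receptors signal as pairs of chains, the levels of the binding chain and the shared chain were compared per kilobase in each library, with no test. The ratio of Csf2ra to Csf2rb was 4.19, 7.79 and 9.01 in KO LT-HSC and 2.21 and 4.70 in WT LT-HSC. It averaged 5.70 ± 5.64 in KO MPP2 and 2.45 ± 0.377 in WT MPP2, and 2.56 ± 1.70 in KO MPP3 and 1.78 ± 0.524 in WT MPP3 (n = 4 each). The granulocyte-macrophage binding chain was thus above the shared chain in every library but KO MPP2 1, at 0.669. The ratio of Il3ra to Csf2rb was 0.463, 0.827 and 0.739 in KO LT-HSC and 0.246 and 0.186 in WT LT-HSC, the 1 of 9 pairs of KO and WT groups whose ratios did not overlap. In the progenitors it overlapped, from 0.0745 to 4.33 in KO MPP2 and 0.259 to 0.626 in WT MPP2, and from 0.212 to 1.32 in KO MPP3 and 0.262 to 0.388 in WT MPP3. Neither Il3ra nor Csf2rb passed the test between KO and WT LT-HSC. The separation of the LT-HSC ratios sets 3 libraries against 2. How often other pairs of genes separate in this way was not taken, so it is a description only. The ratio of Il6ra to Il6st averaged 1.08 ± 1.20 in KO LT-HSC (n = 3) and 0.554 ± 0.162 in WT LT-HSC (n = 2), 0.643 ± 0.161 in KO MPP2 and 0.498 ± 0.245 in WT MPP2, and 1.21 ± 0.490 in KO MPP3 and 1.57 ± 0.925 in WT MPP3. The wide spread in KO LT-HSC came from KO LT-HSC 3, at 2.46, the library with the low Il6st.

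**Figure D5:**
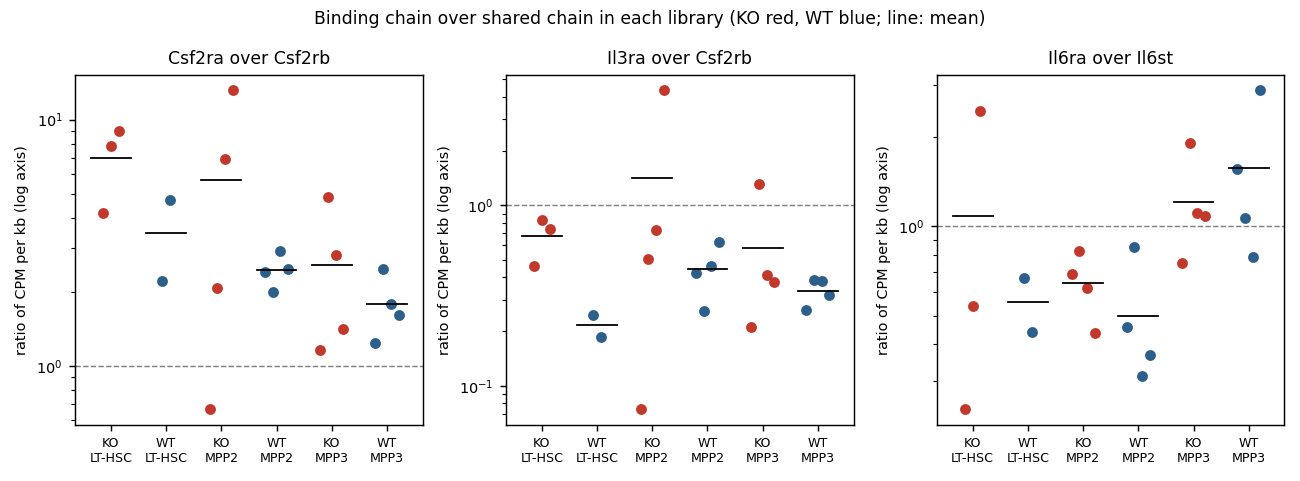
Each panel plots the ratio of 2 receptor chains in CPM per kilobase on a log axis, 1 point a library, with the mean as a line and KO (red) left of WT (blue) in each population; the dashed line marks a ratio of 1. The Il3ra to Csf2rb ratio is 0.463 or more in the 3 KO LT-HSC libraries and 0.246 or less in the 2 WT LT-HSC libraries, and the MPP2 and MPP3 groups overlap. The ratios were not tested.

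For each receptor the 3 genes most like it over the 21 libraries were taken by Pearson r of log2(CPM + 1), among 8939 tested genes with a mean of at least 10 CPM. Csf1r was followed most closely by Tifab (r = 0.98), Irf8 (0.96) and Clec12a (0.94). Irf8, a transcription factor known in monocyte and dendritic cell development, averaged 1.74 ± 1.58 CPM in KO LT-HSC and 4.24 ± 3.35 CPM in WT LT-HSC, 17.8 ± 14.9 CPM in KO MPP2 and 49.8 ± 38.3 CPM in WT MPP2, and 86.6 ± 47.0 CPM in KO MPP3 and 89.4 ± 35.1 CPM in WT MPP3. Csf3r was most like Emb (0.95), Ppcdc (0.93) and Lcp1 (0.93), and Il6ra most like Rcsd1 (0.94), Ppm1f (0.92) and Slc43a2 (0.92). For Csf2rb they were Trf (0.90), Arhgap15 (0.89) and Cd53 (0.87), for Il6st Pqlc3 (0.89), Zcchc18 (0.87) and Hdac9 (0.87), and for Ifngr1 Nudt7 (0.90), Zwint (0.87) and Cdc123 (0.86). Kit was most like Tnrc6a (0.87), Jade2 (0.86) and Itgav (0.84). Csf2ra was most like Plekho1 (0.89), Pxn (0.86) and Ttyh3 (0.86), and Il3ra most like Npm3 (0.84), Irf2bp2 (0.80) and Il17ra (0.78). KO MPP3 2, which stood apart, was the highest library for Kit, Csf2ra and Il3ra. For each of their partners named here, the highest KO MPP3 library lay well above the group median. It held 133 CPM against 50.4 for Tnrc6a, 45.1 against 11.1 for Plekho1 and 198 against 86.6 for Irf2bp2. The r values without KO MPP3 2 were not taken. All r values here are the highest among 8939 candidates, so they are descriptions.

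Among the other receptors, Tek was higher in LT-HSC and in MPP2 than in MPP3, in both genotypes. Of 37 listed receptors 34 were tested, and edgeR called 0 of them between KO and WT in each population, with 2, 1 and 3 at an unadjusted p under 0.05 in LT-HSC, MPP2 and MPP3, where 2.43%, 6.72% and 5.62% of all genes had such a p. Tek, the angiopoietin receptor, averaged 63.1 ± 16.6 CPM in KO LT-HSC and 43.2 ± 9.50 CPM in WT LT-HSC, against 4.39 ± 2.15 CPM in KO MPP3 and 4.46 ± 0.925 CPM in WT MPP3. It was higher in LT-HSC than in MPP3 by 3.84 ± 0.43 in KO (edgeR adjusted p = 3.39e-05) and 3.28 ± 0.45 in WT (0.000659). For LT-HSC over MPP3, 5 of the 34 were called higher and 5 lower in KO, and 2 higher and 1 lower in WT, against 2.64% of all genes called in KO and 1.10% in WT. Beside Tek and Il11ra1, the higher in KO were Ghr, Il15ra and Il27ra. The 5 lower in KO were Il17ra, Il10rb, Pdgfrb, Ifnar2 and Il1r1, and the 1 lower in WT was Pdgfrb, a receptor of platelet-derived growth factor (-2.30 ± 0.55 in KO and -3.03 ± 0.68 in WT). Il11ra1, a binding chain that signals through gp130, was among the higher in both (1.34 ± 0.19 in KO and 1.11 ± 0.21 in WT). For LT-HSC over MPP2 (1.81% of all genes called in KO and 0.630% in WT), 2 were called higher and 0 lower in KO, Il11ra1 (1.21 ± 0.19) and Il21r (1.33 ± 0.26), and 1 higher and 0 lower in WT, Il15ra (0.95 ± 0.21). For MPP2 over MPP3 (0.886% of all genes in KO and 1.20% in WT), 1 was called higher and 1 lower in KO, Tek (2.37 ± 0.40) and Il21r (-1.06 ± 0.24), and 2 higher and 0 lower in WT, Tek (2.40 ± 0.40) and Epor, the erythropoietin receptor (7.12 ± 1.67). Epor averaged 35.7 ± 25.7 CPM in WT MPP2, and was at or under 0.951 CPM in the 4 WT MPP3 libraries, so that its fitted value depends on the prior count.

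Of 14 ligands 7 passed the filter, and edgeR called 0 of them in any of the 12 comparisons. Of 42 signalling genes downstream of the receptors all 42 were tested, and edgeR called 0 between KO and WT in each population, with 0, 2 and 3 at an unadjusted p under 0.05 in LT-HSC, MPP2 and MPP3, against 2.43%, 6.72% and 5.62% of all genes. Cish, a feedback inhibitor of STAT5 signalling, averaged 52.0 ± 15.4 CPM in KO LT-HSC and 75.6 ± 22.5 CPM in WT LT-HSC, against 9.44 ± 5.29 CPM in KO MPP2 and 9.84 ± 1.78 CPM in WT MPP2. It was higher in LT-HSC than in MPP2 by 2.47 ± 0.40 in KO (edgeR adjusted p = 0.00283) and 2.94 ± 0.43 in WT (0.00614) on the log2 scale, and higher in LT-HSC than in MPP3 by 2.59 ± 0.40 in KO (0.00100) and 2.65 ± 0.43 in WT (0.00329). Grb10, an adaptor that binds receptor tyrosine kinases, was higher in LT-HSC than in MPP3 by 3.46 ± 0.29 in KO (edgeR adjusted p = 2.36e-06) and 3.90 ± 0.31 in WT (2.90e-06). Pik3r1, a regulatory subunit of phosphoinositide 3-kinase, was higher in LT-HSC than in MPP2 by 1.48 ± 0.22 in KO (edgeR adjusted p = 0.00161) and 1.12 ± 0.24 in WT (0.0404), and Stat4 by 1.30 ± 0.22 in KO (0.00416). The tyrosine kinase gene Fes was lower in LT-HSC than in MPP3 in KO, with a log2 fold change of -1.29 ± 0.32 (edgeR adjusted p = 0.0319). Stat3, which gp130 and the Csf3r product activate, was lower in MPP2 than in MPP3 in WT, at -0.83 ± 0.17 (edgeR adjusted p = 0.0256). For MPP2 over MPP3, Grb10 was called in both genotypes (2.44 ± 0.27 in KO and 2.88 ± 0.28 in WT).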

How the data were processed

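The authors deposited a table of raw read counts per Ensembl gene for 21 libraries of sorted mouse cells. Per the submitters' processing notes, the aligner was STAR and the genome build mm10, with no version given. The sources used here do not give the counting program, its strand setting or its treatment of reads shared by paralogs. Symbols, positions and exon lengths came from GENCODE M21, which matched 54409 of 54446 identifiers (37 did not match). Counts were scaled with TMM factors in edgeR 4.0.16 (R 4.3.3), filtered with filterByExpr at a minimum count of 10, and fitted once over the 21 libraries and 6 groups with the robust quasi-likelihood test. P values were adjusted by Benjamini-Hochberg over all 21100 genes tested, with a threshold of 0.05. Each SE was taken from the fitted log2 fold change and its F statistic, and intervals are at 95%. The fit was tested on simulated data. The receptors and the gene lists were chosen with earlier results of these data known. A gene of these lists is not reported here and was left out of their counts. The named genes are all 9 receptors and Csf2rb2, the 3 genes most like each receptor, and the called genes of the lists.

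Same-numbered KO and WT libraries deviated together, with correlations of 0.327 to 0.381 in MPP2 and 0.133 to 0.260 in MPP3 (4 pairs each) and of 0.064 and 0.073 in LT-HSC (2 pairs). Differently numbered libraries gave -0.426 to 0.418 in MPP2 and -0.233 to 0.237 in MPP3 (12 pairs each), so the ranges overlapped there. In LT-HSC they gave -0.073 to 0.003 (4 pairs). The pairs of mice come from the study's design text. Populations of 1 genotype with adjoining title numbers were taken as 1 mouse; KO LT-HSC 3 adjoins mouse 4, not 3, and both readings were fitted. Alternatives were RLE factors, no filter, DESeq2 1.42.0, limma 3.58.1 voom with quality weights, the groups compared alone, replicate and mouse blocks, title numbers as a term or a split, each library left out, Csf2rb and Csf2rb2 added, and, chosen after seeing the data, leaving out the 3 libraries that stood apart. With counts between 18892723 and 31611366 a library, 3 counts equal 0.0985 to 0.194 CPM. Promoter sequences are from RefSeq (GRCm38.p6).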

Additional observations from a re-analysis of the deposited data

Results flagged for a closer look

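The 9 receptors in each group of 4 libraries gave 36 sets of values, of which 5 held a library far from the other 3. Chance gives about 1 in 20 for a single set. The sets share libraries and are not separate trials, so the 5 cannot be weighed against that rate. In KO MPP3, replicate 2 stood alone for Kit at 509 CPM, for Il3ra at 20.4 CPM and for Il6ra at 29.8 CPM, above the other 3 KO MPP3 libraries, and for Ifngr1 at 101 CPM, below them. That library also held 10.3% of its counts in CT010467.1 and 12.8% in mitochondrial genes. Its share of the 9 stem cell markers, 0.0859%, was the highest of any MPP2 or MPP3 library. In KO MPP2, replicate 1 stood alone for Il6st at 22.2 CPM, and immunoglobulin genes took 45.8% of its counts. The part of these shares in the receptor values was not tested.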

How the results depend on the processing

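Between KO and WT, 0 of the 9 receptors were called under every alternative run, the replicate block included, and likewise for the differences of the KO effect between populations. Over all genes the count between KO and WT was 1 in LT-HSC (0 to 30 over the alternatives, the highest by DESeq2), 3 in MPP2 (0 to 45) and 2 in MPP3 (0 to 50). Over all genes and the same alternatives, the counts between populations in KO were 381 for LT-HSC over MPP2 (116 to 1738), 558 for LT-HSC over MPP3 (438 to 1538) and 187 for MPP2 over MPP3 (6 to 931). In WT they were 133 (43 to 1448), 232 (168 to 1656) and 253 (2 to 996) in the same order of comparisons. Between populations the receptors called were as follows. For LT-HSC over MPP2 in KO, 1 was called and 0 with no filter, the groups compared alone, either replicate block by mouse, or within titles under 100 or over 100 (0 to 1 with each library left out). In WT, 0 were called, and 1 by DESeq2 (Csf1r) or by limma voom (Ifngr1) (0 to 1 with each library left out). For LT-HSC over MPP3 in KO, 1 was called, 2 by DESeq2, with the groups compared alone or without the libraries that stood apart, and 0 within titles over 100 (1 with each library left out). Limma voom kept a count of 1 without Csf1r in each: Csf2rb for LT-HSC over MPP3 in KO, Il6ra in WT, and Ifngr1 for LT-HSC over MPP2 in KO. Within titles under 100 the 1 called for LT-HSC over MPP3 in KO was Il6ra. In WT, 1 was called, 0 with RLE factors, no filter, either replicate block by mouse, the title term or within titles under 100, and 3 with the groups compared alone (0 with each library left out). For MPP2 over MPP3 in KO, 0 were called, 2 by limma voom and 3 within titles over 100. In WT, 0 were called, 1 by limma voom and 2 within titles over 100 (0 to 1 with each library left out). The cause of these changes was not tested, except that splits by title hold fewer samples. No WT LT-HSC library has a title over 100, so that split gave no value. No fitted value with an unadjusted p under 0.05 changed sign in 195 values from alternatives or 122 with a library left out. Between KO and WT, where no receptor had such a p, the sign changed in 46 of 254 values and in 29 of 189. The RLE factors moved no comparison by over 0.032 on the log2 scale. Within LT-HSC, 3 KO against 2 WT libraries and the few counts of Csf1r limit what can be seen.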
